A study of Mus musculus with 11 samples.

Results

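Odc1, Srm, Amd1, Cad, Ppat, Paics, Impdh2, Nme1, Tert and Tfrc are textbook target genes of the Myc transcription factor that serve cell growth. They encode enzymes of polyamine and nucleotide synthesis, the catalytic subunit of telomerase and the transferrin receptor. The 10 genes were taken by name, a choice made with earlier results of these data known, and were looked up among the coding RefSeq rows of the deposited tables through their transcript identifiers. Of the 10, 8 had a row in each table, out of 19683 coding rows in the Dicer table and 16484 in the cMyc table. Amd1 (NM_009665) and Nme1 (NM_008704) had no row and are not analysed here.

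The study sequenced poly(A)-selected RNA of mouse embryonic stem cells of strain 129S4/SvJae, kept on gelatin without feeder cells. Of its 11 samples, 7 are such libraries: 3 from cells without Dicer (Dcr KO lines 1, 3 and 4, with 1 library each), 2 from wild-type cells (Dcr WT libraries 1 and 2), 1 from cMyc-/- cells (cMyc KO) and 1 from cMyc flox/flox cells (cMyc flox), which still carry their cMyc alleles. The Dicer libraries were sequenced from both fragment ends and the cMyc libraries from 1 end, per the labels. The deposited column name of Dcr WT library 1 ends in _1 and those of the other Dicer libraries in _2, which no label explains. The labels name neither the Dicer or cMyc exons removed nor the age of the lines, nor do they say whether the wild-type libraries came from separate cultures, so p-values reflect spread among these libraries alone, which may be technical. The 4 chromatin libraries of the series are not analysed here.

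Polyamines are small cations that cells need for growth. Ornithine decarboxylase (Odc1) makes putrescine, and spermidine synthase (Srm) and spermine synthase (Sms) extend it with aminopropyl groups that S-adenosylmethionine decarboxylase (Amd1) prepares. Purine rings are built stepwise from phosphoribosyl pyrophosphate, starting with Ppat, and pyrimidine rings begin with the multi-enzyme protein Cad. Myc pairs with Max, binds the E-box CACGTG and, in many cell types, raises transcription of such growth genes, while Dicer makes mature microRNAs.

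The RefSeq windows of 250 bases before each gene start (build GRCm38.p6, used here for sequence only, since the expression files use mm9) were searched on both strands for CACGTG and for the variant CACGCG, whose other strand reads CGCGTG. Windows were found for 9 of the 10 genes. Srm had no window and was not searched. CACGTG was present for 3 of them, Paics, Impdh2 and Nme1, against 6.86% of the 27025 genes of the whole reference (6.02% of its 32851 windows). The variant was present for 2, Odc1 and Tfrc, against 8.65% of genes (7.62% of windows). A match describes these letters in this window and is not evidence of binding, and a window without the letters says nothing about Myc. The sites below, with the motif in capitals, are shown for each of the 10 genes that has one. In the Dicer-null lines Odc1 fell and Tfrc rose, Paics and Impdh2 did not pass the test, and Nme1 was not measured.
Odc1 site in the variant form, chr12:17544683-17544708, plus strand, motif starting 180 bases before the gene start: tgatgtggtgCGCGTGcgcaggcctg
Odc1 site in the variant form, chr12:17544762-17544787, plus strand, motif starting 101 bases before the gene start: ggtgggtgggCACGCGctgcgccccg
Tfrc site in the variant form, chr16:32608769-32608794, plus strand, motif starting 117 bases before the gene start: cagccaatcgCACGCGctctcccgac
Tfrc site in the variant form, chr16:32609069-32609094, plus strand, motif starting 43 bases before the gene start: tcgtggtcctCGCGTGgcgggcggac
Paics site in the canonical form, chr5:76951089-76951114, plus strand, motif starting 203 bases before the gene start: cctcggaaagCACGTGgagggacctg
Impdh2 site in the canonical form, chr9:108560316-108560341, plus strand, motif starting 110 bases before the gene start: gctcgataagCACGTGgttacccagc
Nme1 site in the canonical form, chr11:93968039-93968064, minus strand, motif starting 29 bases before the gene start: cttgatacgcCACGTGggctcgcctt
Nme1 site in the canonical form, chr11:93968275-93968300, minus strand, motif starting 18 bases before the gene start: tgcggggaacCACGTGaggccgggga
The whole Odc1 window, at chr12:17544623-17544872 on the plus strand and 80% G and C, is given with both variant motifs in capitals, since Odc1 and Srm showed the largest decreases of the 8 genes.
Odc1 promoter window: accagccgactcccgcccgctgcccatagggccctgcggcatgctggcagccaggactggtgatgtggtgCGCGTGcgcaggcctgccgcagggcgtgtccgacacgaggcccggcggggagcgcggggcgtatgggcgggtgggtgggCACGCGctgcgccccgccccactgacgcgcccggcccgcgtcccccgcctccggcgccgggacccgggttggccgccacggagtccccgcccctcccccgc
Tfrc and Nme1 each have more than one annotated start, and their sites come from different windows. Paics and Ppat lie on opposite strands and their annotated starts overlap: the 277 bases between the starts belong to both genes, and the Paics site above lies inside the Ppat gene. Because counting by strand is not stated, reads of that stretch cannot be assigned, and the values of Ppat and Paics are uncertain by that much.

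Values are normalised read counts, namely whole reads divided by 1 factor for each library. The Dcr KO libraries held 247574902 to 278006158 reads, and Dcr WT libraries 1 and 2 held 101815723 and 206721717. The cMyc KO and cMyc flox libraries held 31633011 and 24660365 reads. Levels of different genes are not compared, because no transcript lengths were at hand. Dicer1 stood at 8553, 9793 and 7743 in Dcr KO lines 1, 3 and 4, against 20131 and 18792 in Dcr WT libraries 1 and 2, a log2 fold change of −1.17 (limma adjusted p = 0.000556). Which part of the gene the lines lack is not stated, so the remaining reads check the label only in part. Marker counts below are calls by limma at an adjusted p under 0.05, by which 20.9% of coding rows were higher and 22.9% lower. Of 12 pluripotency markers, Pou5f1, Sox2 and Nanog among them, 1 was higher and 1 lower in Dcr KO, none was at 0, and their summed value was 1169500 to 1378700 in Dcr KO and 1124600 to 1312100 in Dcr WT. Without Dcr WT library 1, 4 were higher, and without line 1 or line 3 none was called. Of 14 fibroblast markers tested, 3 were higher and 8 lower, and the sum of the 15 listed was 126210 to 149690 in Dcr KO and 76606 to 80942 in Dcr WT. Postn, 1 of the 15 listed, was not tested. It was at 0 in every Dcr KO library and in Dcr WT library 1, and at 38.3 in Dcr WT library 2. Vim, which other cell types express too, made most of that sum, at 117145 to 136633 in Dcr KO and 26855 to 44721 in Dcr WT, while the collagen gene Col1a1 had 73.3 to 131.3 in Dcr KO and 1867 to 5516 in Dcr WT. Of 9 neural markers, 5 were higher and 2 lower, with sums of 72720 to 86202 in Dcr KO and 35724 to 55918 in Dcr WT. Of 10 endoderm markers tested, 0 were higher and 5 lower by limma, edgeR and DESeq2 and at an unadjusted p under 0.05 in limma, with sums of 21245 to 36490 in Dcr KO and 34657 to 40482 in Dcr WT; Afp and Ttr, 2 of the 12 listed, were at 0 in every Dcr KO library and 1 of them, Afp, in every Dcr WT library. The lower count was 3 without line 1 or line 4 and 3, with 1 higher, without Dcr WT library 1. Of 9 trophoblast markers, 3 were higher and 2 lower, with sums of 58217 to 71941 in Dcr KO and 52871 to 57378 in Dcr WT. The lower count was 1 without line 1 or line 3 and 0 without line 4. The 2 lower neural markers were 1 without line 3 or line 4. The part of such cells in the results below was not tested, and in bulk RNA fewer cells of a type and less RNA per cell cannot be told apart.

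The question put to the Dicer libraries was which growth genes differ between Dicer-null and wild-type cells. Of the 8 measured genes, 4 were lower in Dcr KO (Odc1, Srm, Cad and Tert), 1 was higher (Tfrc) and 3 did not pass (Ppat, Paics and Impdh2), by limma at an adjusted p under 0.05. Among all coding RefSeq rows tested, 22.9% were lower and 20.9% higher by the same rule, which is the background for each list count below. The Dcr KO and Dcr WT values did not overlap in 7 of the 8 genes, with Dcr KO below Dcr WT in 6 and above in 1, where 35.5% of coding rows had Dcr KO wholly below and 31.3% wholly above Dcr WT. The median log2 fold change was −0.44 over the 8 genes and −0.06 over the coding rows. By edgeR on the recovered reads the 8 genes also gave 1 higher and 4 lower, where 20.8% and 23.4% of coding rows were higher and lower. Without limma's mean-variance trend they were 0 higher (1 at an unadjusted p under 0.05) and 2 lower, Odc1 and Tert. The pathway lists described next also lost calls without the trend, to 2 lower each for the polyamine, purine, pyrimidine, deoxynucleotide and iron lists and 3 lower each for the telomerase and diphosphate kinase lists, with 1 gene higher in the pyrimidine list and none in the others.

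**Figure D1:**
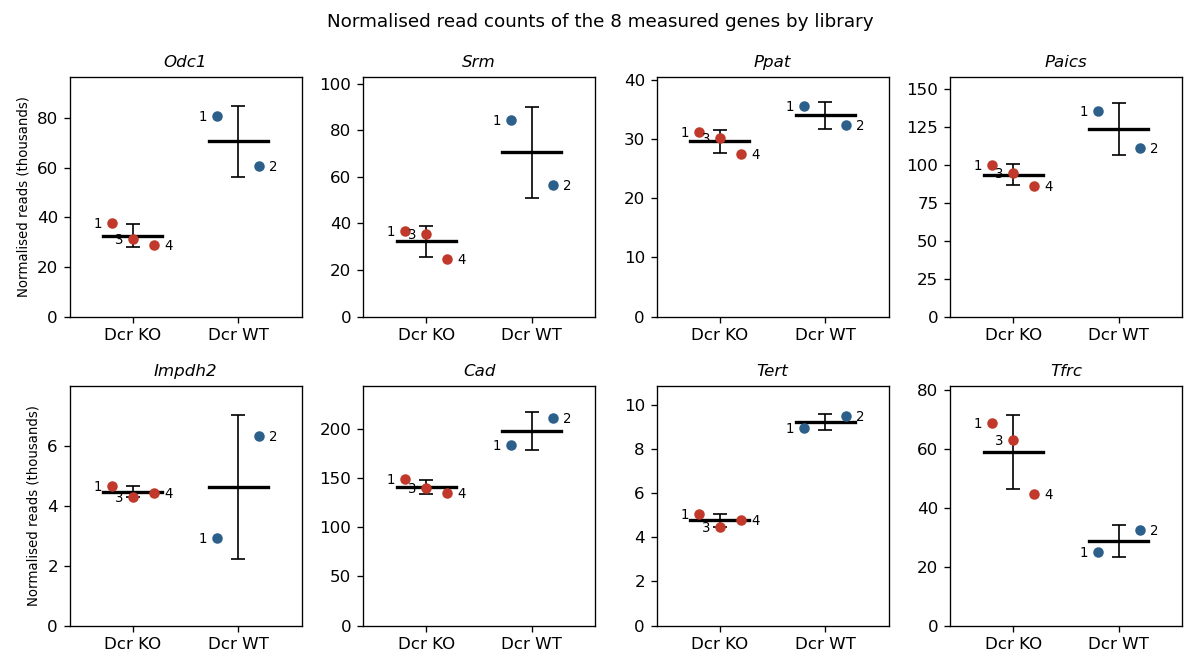
Normalised read counts, on the vertical axis in units of 1000, of the 8 measured genes in the Dcr KO lines (red, numbered 1, 3 and 4) and the Dcr WT libraries (blue, numbered 1 and 2); horizontal bars are means and whiskers SD (n = 3 and n = 2). In Odc1, Srm, Ppat, Paics, Cad and Tert the 3 red points lie below both blue points, in Tfrc they lie above, and in Impdh2 they lie between the blue points at 2919 and 6321.

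Myc itself was far lower in the Dicer-null lines. It stood at 1253, 1054 and 443.1 in Dcr KO lines 1, 3 and 4, against 10984 and 7478 in Dcr WT libraries 1 and 2 (log2 fold change −3.44 ± 0.39 SE, limma adjusted p = 0.000289). Mycn, the paralog that binds the same E-box, stood at 98392, 99802 and 84299 in Dcr KO lines 1, 3 and 4, against 93214 and 79275 in Dcr WT libraries 1 and 2, and did not pass (0.13, limma adjusted p = 0.540). Of the 11 genes of the Myc and Max family tested, 1 was higher, the Max partner Mxd1 (0.95), and 2 were lower, Myc and Mycl (−1.27). Without Dcr WT library 1 the family count was 5 higher and 2 lower, and without library 2 it was 2 higher. Without the trend Mycl did not pass (adjusted p = 0.0688). Max did not pass (0.28, limma adjusted p = 0.238).

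Odc1 and Srm, the enzymes that make putrescine and spermidine, each fell by 1.12 on the log2 scale. Odc1 (NM_013614) had 37674, 31253 and 28683 normalised reads in Dcr KO lines 1, 3 and 4, against 80818 and 60686 in Dcr WT libraries 1 and 2. Each Dcr KO line lay below both Dcr WT libraries. The mean was 32537 ± 4631 in Dcr KO (SD, n = 3) and 70752 ± 14235 in Dcr WT (SD, n = 2), and the SE of the log2 change was 0.17 (limma adjusted p = 0.00159). The decrease stayed past the threshold whichever library was left out, at −1.32 to −0.91.

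Srm (NM_009272) had 36794, 35499 and 24563 normalised reads in Dcr KO lines 1, 3 and 4, against 84445 and 56719 in Dcr WT libraries 1 and 2. Here too the groups did not overlap, and line 4 stood apart below the other 2 lines. Its log2 change of −1.12 ± 0.22 (SE; limma adjusted p = 0.00495) ran from −1.41 to −0.84 over the fits that left out 1 library, each past the threshold. Without the mean-variance trend it did not pass (adjusted p = 0.0714).

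Amd1 has no row, but Amd2 (NM_007444), a near-identical copy of it in the mouse, does, so reads of the 2 genes may be mixed and its values are uncertain. Amd2 had 9646, 7665 and 7017 normalised reads in Dcr KO lines 1, 3 and 4, against 13847 and 13455 in Dcr WT libraries 1 and 2. It fell by 0.76 on the log2 scale (SE 0.16, limma adjusted p = 0.00739).

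The other genes of polyamine synthesis and turnover moved in both directions, more of them down. Of the 29 genes with a row, Odc1 and Srm included, 14 were lower, 4 higher and 11 did not pass, and the list's median log2 fold change was −0.57. Spermine synthase Sms was lower (−0.65, limma adjusted p = 0.0147), as was Azin1, which protects Odc1 from antizyme (−0.54, adjusted p = 0.0365). The antizyme Oaz1, which sends Odc1 protein to degradation, did not pass by limma (−0.74, adjusted p = 0.134). It did pass by edgeR (adjusted p = 0.0452) and by DESeq2 (adjusted p = 0.0361). Oaz1 had 6306 normalised reads in Dcr WT library 2 but 2291 in library 1, inside the Dcr KO range of 1965 to 2679. The antizyme gene Oaz2 (−0.73, limma adjusted p = 0.0040) and Azin2, a relative of Azin1 (−0.86, limma adjusted p = 0.0039), were lower. Both spermidine/spermine acetyltransferase genes were lower, Sat1 by 0.95 and Sat2 by 1.70 on the log2 scale (adjusted p = 0.00564 and 0.00171). Sat1 encodes the enzyme that starts polyamine breakdown. Arginase 2 (Arg2), which yields the ornithine that Odc1 uses, was higher. It had 414.3, 548.4 and 505.1 normalised reads in Dcr KO lines 1, 3 and 4, against 245.4 and 121.4 in Dcr WT libraries 1 and 2 (log2 fold change 1.49, limma adjusted p = 0.00675). Without line 3 the list held 9 lower and 1 higher, and without line 1 it held 11 and 2. Sms did not pass without line 3 (adjusted p = 0.0611) or line 4 (0.0570), and of the fits without 1 library Azin1 passed only in that without Dcr WT library 1.

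**Figure D2:**
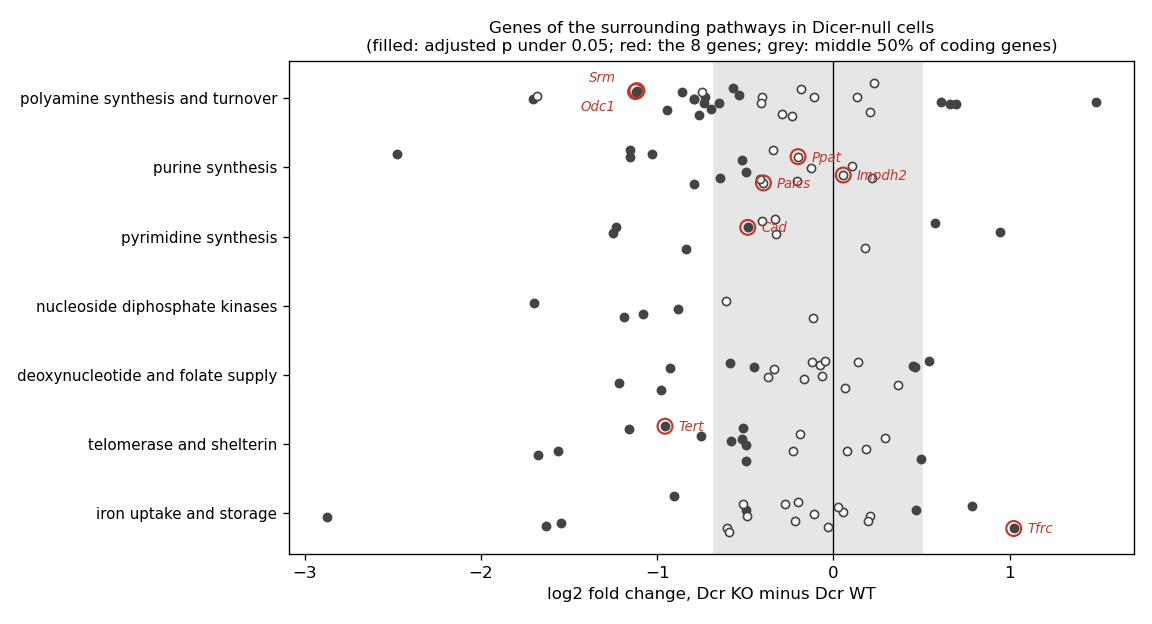
Log2 fold change of Dcr KO over Dcr WT on the horizontal axis for each tested gene of 7 pathway lists; filled points passed limma at an adjusted p under 0.05, red rings mark the 8 measured genes and the grey band the middle 50% of coding rows (−0.68 to 0.50). Odc1, Srm, Tert and Tfrc lie outside the band, and Ppat, Paics, Impdh2 and Cad lie inside it.

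None of the 3 purine enzymes among the 8 genes passed the test. Ppat (NM_172146), which commits phosphoribosyl pyrophosphate to purine synthesis, had 31228, 30161 and 27503 normalised reads in Dcr KO lines 1, 3 and 4, against 35668 and 32433 in Dcr WT libraries 1 and 2. The groups did not overlap, but line 1 lay close under Dcr WT library 2. The log2 fold change of −0.20 ± 0.14 (SE) did not pass (limma adjusted p = 0.282).

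Paics (NM_025939), which carries out 2 later steps of the ring, had 99933, 94589 and 86215 normalised reads in Dcr KO lines 1, 3 and 4, against 135827 and 111442 in Dcr WT libraries 1 and 2. The groups did not overlap, and Dcr WT library 1 was the highest of the 5. The log2 fold change of −0.40 ± 0.15 (SE) did not pass (limma adjusted p = 0.0680). It did pass after scaling to total reads (−0.48, adjusted p = 0.00693), after median-of-ratios scaling over coding rows (−0.36, adjusted p = 0.0336) and without Dcr WT library 2 (−0.54, adjusted p = 0.0159).

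Impdh2 (NM_011830), the rate-limiting enzyme of guanine nucleotide synthesis, had 4664, 4306 and 4430 normalised reads in Dcr KO lines 1, 3 and 4, against 2919 and 6321 in Dcr WT libraries 1 and 2. The 3 lines lay close together and between the 2 wild-type libraries, which differed from each other by 2.17-fold. On the log2 scale Impdh2 differed by 0.06 ± 0.27 (SE; limma adjusted p = 0.894). Its sign depended on the wild-type library kept, at −0.50 without library 1 (adjusted p = 0.0351) and 0.61 without library 2 (adjusted p = 0.0137), so no direction can be given.

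Elsewhere in purine synthesis the calls went one way. Of 17 genes with a row, the 3 above included, 8 were lower, 0 higher and 9 did not pass by limma, with a median log2 fold change of −0.42. By edgeR and by DESeq2 the counts were also 8 and 0, and at an unadjusted p under 0.05 in limma they were 10 and 0. Gart, which carries out 3 steps between Ppat and Paics, had 96814, 83911 and 74820 normalised reads in Dcr KO lines 1, 3 and 4, against 139219 and 153932 in Dcr WT libraries 1 and 2 (−0.79, limma adjusted p = 0.00464). The largest decreases were in Adssl1, the muscle form of adenylosuccinate synthase (−2.48, adjusted p = 0.00017), at 110.0 to 157.9 normalised reads in Dcr KO and 726.2 to 791.5 in Dcr WT, in Prps2, which makes phosphoribosyl pyrophosphate (−1.15, adjusted p = 0.0122), and in the adenine salvage enzyme Aprt (−1.15, adjusted p = 0.00033). Prps2 stood at 3125 to 4485 in Dcr KO, against 5906 and 11975 in Dcr WT libraries 1 and 2, and did not pass without line 4 (adjusted p = 0.0717). Impdh1 did not pass (−0.21, adjusted p = 0.323). Without line 1 or line 3 the list held 5 lower.

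Cad (NM_023525), which carries the first 3 activities of pyrimidine synthesis, was modestly lower. It had 148371, 139232 and 134321 normalised reads in Dcr KO lines 1, 3 and 4, against 183549 and 211157 in Dcr WT libraries 1 and 2. The groups did not overlap. The mean was 140642 ± 7130 in Dcr KO (SD, n = 3) and 197353 ± 19521 in Dcr WT (SD, n = 2), and the log2 fold change was −0.49 ± 0.14 (SE; limma adjusted p = 0.0267). The call rests on having all 5 libraries, or 4 with Dcr WT library 1 left out: the adjusted p was 0.0649 without line 1, 0.133 without line 3, 0.0767 without line 4 and 0.0682 without Dcr WT library 2, at −0.59 to −0.39 in the 5 such fits.

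Of the 10 pyrimidine genes, Cad included, 4 were lower, 2 higher and 4 did not pass (median −0.37). Among coding rows 22.9% were lower and 20.9% higher. Dhodh, the mitochondrial enzyme after Cad, was lower (−1.23, limma adjusted p = 0.000436), and Umps, which completes the pathway, did not pass (−0.32, adjusted p = 0.112). The salvage genes diverged, with uridine phosphorylase Upp1 lower (−1.25, adjusted p = 0.0110) and the uridine-cytidine kinase gene Uckl1 higher (0.95, adjusted p = 0.00121). Another uridine-cytidine kinase gene, Uck1, was lower (−0.84, limma adjusted p = 0.00326), so the kinase genes moved in both directions. Upp1 stood at 14758 to 23985 in Dcr KO, against 67196 and 33739 in Dcr WT libraries 1 and 2, and did not pass without line 4 (adjusted p = 0.0613). The count was 2 lower and 1 higher without line 4, and the higher count was also 1 without line 1, line 3 or Dcr WT library 1.

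Nme1, a nucleoside diphosphate kinase that passes phosphate between nucleotides, has no row. Its neighbour and close relative Nme2 (NM_001077529) had 25336, 23499 and 21800 normalised reads in Dcr KO lines 1, 3 and 4, against 50754 and 48730 in Dcr WT libraries 1 and 2. No line came near the wild-type values. The log2 fold change was −1.08 ± 0.13 (SE; limma adjusted p = 0.000487), and since the copies are alike and transcripts that join both genes are known in human, reads of Nme1 may be among them. Of 6 genes of this family with a row, 4 were lower and 0 higher by limma, edgeR and DESeq2 and at an unadjusted p under 0.05 in limma (median −0.98), and 4 were lower whichever library was left out. Nme3 (−1.70, adjusted p = 0.000145) and Nme6 (−1.19, adjusted p = 0.00102) had the largest decreases of the 4.

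Genes that supply deoxynucleotides and folate units did not lean one way. Of 18, 5 were lower, 3 higher and 10 did not pass (median −0.10). By the same rule 22.9% of coding rows were lower and 20.9% higher, near the shares of this list. The largest changes were in glycine decarboxylase Gldc (−1.22, limma adjusted p = 0.00432), serine hydroxymethyltransferase Shmt1 (−0.98, adjusted p = 0.00133) and the dUTP hydrolase Dut (−0.93, adjusted p = 0.00182). The 3 higher calls fell to 0 without line 1, line 3 or Dcr WT library 2, and the 5 lower calls to 3 without line 3 or line 4.

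Tert (NM_009354), the reverse transcriptase of telomerase, was lower in every Dicer-null line. It had 5050, 4471 and 4783 normalised reads in Dcr KO lines 1, 3 and 4, against 8978 and 9505 in Dcr WT libraries 1 and 2. Values within each group lay close together, and the groups stood well apart. The mean was 4768 ± 290.1 in Dcr KO (SD, n = 3) and 9242 ± 372.3 in Dcr WT (SD, n = 2). Tert fell by 0.96 on the log2 scale (SE 0.14, limma adjusted p = 0.00114), and its change ran from −0.998 to −0.910 when a library was left out.

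Of 16 telomerase and shelterin genes, Tert included, 10 were lower, 1 higher and 5 did not pass (median −0.51). Shelterin subunit Acd (−1.68, limma adjusted p = 0.0003) and the small nucleolar RNA-protein subunits Nop10 (−1.56, adjusted p = 6.85e-05) and Nhp2 (−1.16, adjusted p = 0.00257), which also sit in telomerase, fell too. Dkc1, the core protein that Nop10 and Nhp2 join, did not pass (0.08, adjusted p = 0.716). Without line 3 the count was 5 lower and without line 4 it was 6. The 1 higher call was the shelterin gene Terf2 (0.50), which of the fits without 1 library passed only in that without Dcr WT library 1.

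Tfrc (NM_011638), the receptor through which cells take up iron-loaded transferrin, was the 1 gene of the 8 that rose. It had 68884, 63146 and 44711 normalised reads in Dcr KO lines 1, 3 and 4, against 24942 and 32594 in Dcr WT libraries 1 and 2. Each line lay above both wild-type libraries, with line 4 the nearest to them. The mean was 58914 ± 12630 in Dcr KO (SD, n = 3) and 28768 ± 5411 in Dcr WT (SD, n = 2). Tfrc thus rose by 1.02 ± 0.20 on the log2 scale (SE; limma adjusted p = 0.00527), with 0.83 to 1.22 over the fits without 1 library, each past the threshold. Without the mean-variance trend it did not pass (adjusted p = 0.0735).

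Among 21 genes of iron uptake and storage, Tfrc included, 3 were higher, 5 lower and 13 did not pass (median −0.22). By the same rule 20.9% of coding rows were higher and 22.9% lower, near the shares of this list. The second transferrin receptor Tfr2 was lower, at 145.1 to 264.8 normalised reads in Dcr KO and 428.5 to 667.3 in Dcr WT (−1.55, limma adjusted p = 0.00663). The metalloreductases Steap4 (−2.87, adjusted p = 0.0122) and Steap1 (−1.63, adjusted p = 0.00116) were lower too. Steap4 was barely detected, with 3 to 12 reads in a Dcr KO library and 15 to 65 in a Dcr WT library, and did not pass without Dcr WT library 2 (adjusted p = 0.0672). The ferritin heavy chain gene Fth1 was lower (−0.50, adjusted p = 0.0295) and of the fits without 1 library passed only in that without Dcr WT library 2. Without line 3, 1 gene of the list was higher.

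Ratios of 2 genes within a library do not depend on how the library was scaled. Tfrc over Odc1 was 1.83, 2.02 and 1.56 in Dcr KO lines 1, 3 and 4, against 0.309 and 0.537 in Dcr WT libraries 1 and 2. The groups did not overlap, and the mean log2 ratio was 2.14 higher in Dcr KO. The two-sided exact permutation p was 0.2, the smallest that 3 against 2 libraries can give, and 0.4 after Benjamini-Hochberg adjustment over 6 ratios.

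Odc1 over Srm overlapped between the groups, at 1.02, 0.880 and 1.17 in Dcr KO lines 1, 3 and 4, against 0.957 and 1.07 in Dcr WT libraries 1 and 2 (exact permutation p = 1). Ppat over Paics, the neighbouring pair, was 0.312, 0.319 and 0.319 in Dcr KO lines 1, 3 and 4, against 0.263 and 0.291 in Dcr WT libraries 1 and 2. This ratio varied little between the lines, and its mean log2 was 0.20 higher in Dcr KO with no overlap (exact permutation p = 0.2, adjusted 0.4). Odc1 over Amd2 was 3.91, 4.08 and 4.09 in Dcr KO lines 1, 3 and 4, against 5.84 and 4.51 in Dcr WT libraries 1 and 2, 0.35 lower on the log2 scale in Dcr KO with the same p. Impdh2 over Ppat and Cad over Paics overlapped between the groups (exact permutation p = 0.8 each).

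**Figure D3:**
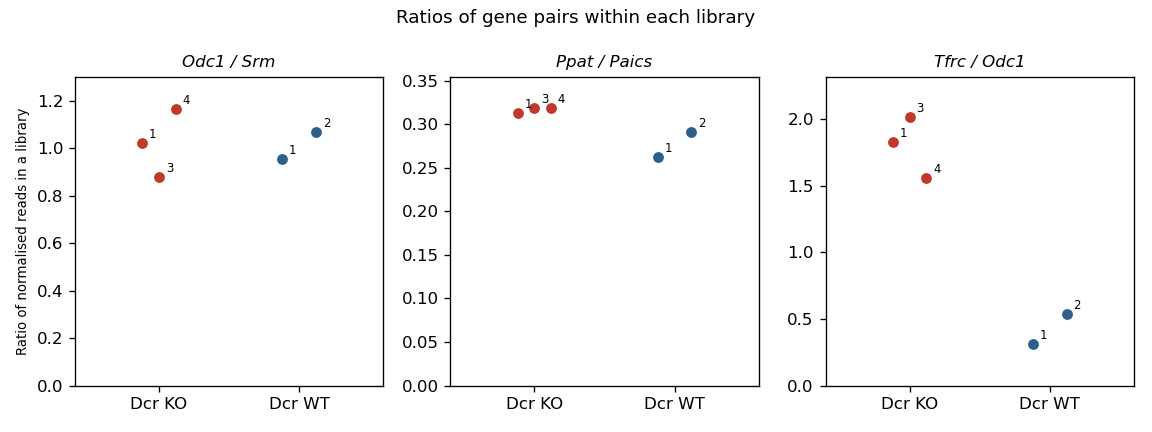
Ratio of the normalised reads of 2 genes within each library (vertical axis, no unit), in Dcr KO lines 1, 3 and 4 (red) and Dcr WT libraries 1 and 2 (blue). Odc1 over Srm overlaps between the groups, Ppat over Paics is slightly higher in the Dcr KO lines, and Tfrc over Odc1 is 1.56 to 2.02 in Dcr KO and 0.309 to 0.537 in Dcr WT.

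Some of the 8 genes varied between the Dicer-null lines. With 1 library a line, differences between lines and between libraries cannot be told apart. The coefficients below use the deposited values and were not computed under other scalings. The coefficient of variation over the 3 lines was 21.4% for Tfrc, 20.8% for Srm and 14.2% for Odc1, and 4.07% to 7.39% for the other 5 genes, where the median of 10404 coding rows with a mean above 1000 was 8.55%. In the deposited values line 1 was the highest of the 3 lines in 8 of the 8 genes and line 4 the lowest in 6. That order depended on the scaling: after scaling to total reads, lines 1 and 4 were each highest in 4 genes and line 3 was lowest in 6.

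Over the 5 Dicer libraries, the coding genes whose centred log2 values lay closest to those of Odc1, of 8076 with a mean above the coding median, were Gatad1 (Euclidean distance 0.037), Mrto4 (0.062) and Ppie (0.080). Gatad1, the closest, had 5986, 4985 and 4650 normalised reads in Dcr KO lines 1, 3 and 4, against 12674 and 9771 in Dcr WT libraries 1 and 2. For Tfrc the closest were Tmem79 (0.094), Grik3 (0.114) and AI661453 (0.145). These distances describe 5 libraries only.

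The cMyc pair asks whether the same genes differ when Myc itself is deleted. Each group has 1 library, so there is no replicate check and no test, and the intervals cover counting error only. Myc had 12 reads in cMyc KO and 446 in cMyc flox, a ratio of normalised values of 0.0231 (95% exact interval 0.0119 to 0.0408). Mycn was higher in cMyc KO, with a ratio of 1.47 (1.40 to 1.53). Of the 8 genes, 0 were past 1.5-fold in either direction, where 4.68% of 13186 coding rows with at least 20 reads were lower and 6.74% higher by that rule. The median ratio was 1.02 over the 8 genes and 1.08 over the coding rows. Scaling to total reads in place of the deposited factors gave a median log2 ratio over all features of −0.07, where the deposited factors gave 0.07, so ratios close to 1 have no firm direction. Of 12 fibroblast markers with enough reads, 6 were past 1.5-fold higher and 0 lower, with a summed value of 17993 in cMyc KO and 12304 in cMyc flox. By the same rule 3 of 9 neural, 2 of 7 endoderm, 1 of 8 trophoblast and 0 of 12 pluripotency markers were higher, and 0 of any of them lower. The endoderm and trophoblast counts rest on few reads, with intervals that include 1. Gata6 and Cdx2 each had 14 reads in cMyc KO and 7 in cMyc flox (interval 0.649 to 5.03). Sox7 had 13 in cMyc KO and 7 in cMyc flox (0.592 to 4.73). After scaling to total reads 4 fibroblast, 2 neural and 1 endoderm markers were higher. The part of such cells in the ratios below was not tested.

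Odc1 had 10679 normalised reads in cMyc KO and 10110 in cMyc flox, a ratio of 1.06 (1.03 to 1.09), or 0.958 after scaling to total reads. Srm had 5619 in cMyc KO and 4517 in cMyc flox, a ratio of 1.24 (1.20 to 1.29). Cad had 15096 in cMyc KO and 13223 in cMyc flox, a ratio of 1.14 (1.12 to 1.17). Of the 4 genes that were lower in Dicer-null cells, Srm and Cad were above their floxed level in the cMyc KO library under each scaling run. Srm ran from 1.13 to 1.24. Cad ran from 1.04 to 1.14, close to the coding median of 1.08 with the deposited factors, so a rise of Cad is not firm. Odc1 ran from 0.958 to 1.06 over the scalings, so it had no firm direction. Tert was below its floxed level under each scaling.

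Ppat stood at 2409 in cMyc KO and 2326 in cMyc flox, a ratio of 1.04 (0.978 to 1.10), and Impdh2 at 4997 in cMyc KO and 4973 in cMyc flox, a ratio of 1.00 (0.966 to 1.04). Paics had 6833 normalised reads in cMyc KO and 7646 in cMyc flox, a ratio of 0.894 (0.865 to 0.923). Purine synthesis as a whole had 0 of 17 genes past 1.5-fold with the deposited factors and 1, Adssl1, lower after scaling to total reads (0.637). Adssl1 was also past it after scaling to coding reads and after median-of-ratios scaling over coding rows. It had only 49 reads in cMyc KO and 60 in cMyc flox, a ratio of 0.702 (0.471 to 1.04) with the deposited factors. Tert had 709 reads in cMyc KO and 762 in cMyc flox, or 642.5 and 803.1 after normalisation, a ratio of 0.800 (0.721 to 0.887).

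Tfrc had the lowest ratio of the 8 genes. It stood at 2817 normalised reads in cMyc KO and 3871 in cMyc flox, a ratio of 0.728 (0.694 to 0.764), and at 0.660 after scaling to total reads, which is past 1.5-fold. Tfrc thus lay above its wild-type level in the Dicer-null lines and below its floxed level in the cMyc KO library. Whether the 2 differences differ was not tested, because the tables were normalised separately and the cMyc pair has no replicates.

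Other genes of the lists past 1.5-fold in cMyc KO are given with the deposited factors first. Among coding rows with at least 20 reads 6.74% were past it higher and 4.68% lower. The pathway list counts below lie near or under those shares. Of 27 polyamine genes with enough reads, 2 were higher, Apip of the methionine salvage pathway (1.82, interval 1.44 to 2.31) and Arg2 (1.62, 0.685 to 4.13, from 17 reads in cMyc KO and 9 in cMyc flox). Of 16 telomerase and shelterin genes 1 was higher, the telomerase trafficking protein Wrap53 (1.56, 1.42 to 1.72), and of 20 iron genes 1 was higher, Hfe (2.44, 0.916 to 7.55). In the pyrimidine, deoxynucleotide and folate, and diphosphate kinase lists 0 of 10, 0 of 18 and 0 of 5 genes were past the fold. In the Myc and Max family, 1 of 11 was higher, Mxd1 (1.61), and 2 were lower, Myc and Mga (0.647). After scaling to total reads Arg2 (1.47), Wrap53 (1.42) and Mxd1 (1.46) were no longer past the fold, while Atp13a3 of the polyamine list (0.610) and Steap2 (0.610) and Ireb2 (0.618) of the iron list, besides Tfrc, were past it lower. Wrap53 was past the fold with the deposited factors alone, while Atp13a3, Steap2 and Ireb2 were past it lower under every other scaling run. Arg2 was lost, and Tfrc gained, only after scaling to total reads. Amd2 and Nme2 had ratios of 1.09 and 1.24 with the deposited factors.

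**Figure D4:**
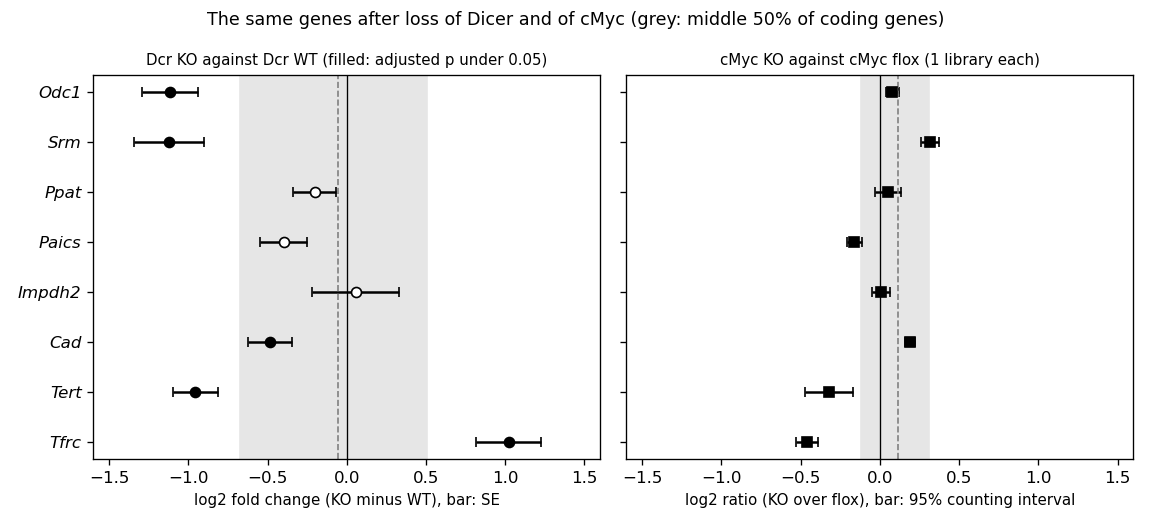
Left, log2 fold change of Dcr KO over Dcr WT with its SE for the 8 genes, filled where limma's adjusted p was under 0.05; right, log2 ratio of cMyc KO over cMyc flox with its 95% counting interval, 1 library each. Grey bands span the middle 50% of coding rows and dashed lines mark their medians. Odc1, Srm and Tert lie below the band and Tfrc above it on the left, while on the right Paics, Tert and Tfrc lie below the band and Srm, at 0.31, at its upper edge.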

How the data were processed

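The authors deposited 1 table for the Dicer libraries and 1 for the cMyc libraries, in which each value is a normalised signal, made from whole read counts with 1 scaling factor for each library, as found from the values. In each column 100% of values were whole reads within 0.01 read in the Dicer table and 0.0155 read in the cMyc table, which is rounded to 2 decimals. The submitters' processing notes list Bowtie, TopHat, DESeq and mm9 without role or version. How reads were counted, with or without strand, and what was filtered is not stated. The RNA libraries were made with a directional dUTP method, per the labels' protocols. Depth ran from 101815723 to 278006158 reads in the Dicer table. Ribosomal RNA took 30.0% of cMyc KO reads and 28.1% of cMyc flox reads. Each value column was matched to its sample, with 0 left over.

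Identifiers were given symbols from RefSeq (GRCm38.p6), with 19362 of 19683 coding rows matched in the Dicer table and 16246 of 16484 in the cMyc table. Dcr KO was compared with Dcr WT on log2(value + 1) by limma 3.58.1 in R 4.3.3, with empirical Bayes moderation and a mean-variance trend, over the 42358 features that reached 1 in 2 or more libraries, with Benjamini-Hochberg adjustment and a threshold of 0.05. This scale understates changes of low genes. Of these features 7171 were higher and 6273 lower. The cMyc pair has 1 library a group and was described by ratios with exact (Clopper-Pearson) 95% intervals, which cover counting error only, for features with at least 20 reads. Within-library ratios were tested with two-sided exact permutation tests. edgeR 4.0.16 and DESeq2 1.42.0 on the recovered reads, other scalings, filters and pseudocounts, and fits without each library were alternatives. Scripts were tested on simulated data. The genes and lists were chosen with earlier results of these data known. The text names the 10 genes, a fixed set of partners, and up to 3 called genes with the largest change per pathway list. Apip, Wrap53, Hfe, Mga, Terf2, Atp13a3, Steap2, Ireb2, Vim, Col1a1, Postn, Afp, Ttr, Oaz2, Azin2, Uck1, Gata6, Cdx2 and Sox7 were named after their values were seen. The likeness search took the 3 nearest coding genes to Odc1 and to Tfrc.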

Additional observations from a re-analysis of the deposited data

How the results depend on the processing

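The calls of Odc1 and Tert held in each of the 18 alternatives run. Of the 8 genes, limma without the trend called 0 higher and 2 lower, and leaving out 1 library gave 1 to 2 higher and 3 to 5 lower. Impdh2 changed sign, to −0.025 after scaling to total reads, −0.044 by edgeR and −0.050 by DESeq2, and ran from −0.50 to 0.61 without 1 library. Without 1 library the log2 difference of Odc1 over Srm ran from −0.092 to 0.11, of Impdh2 over Ppat from −0.37 to 0.88 and of Cad over Paics from −0.33 to 0.15. Over all features the calls were 4243 higher and 3832 lower without the trend, 3760 and 4109 when coding rows alone were tested, by construction fewer, and 3782 to 8022 higher and 3847 to 5935 lower without 1 library. In the cMyc pair, scaling to total reads put 1 of the 8 genes, Tfrc, past 1.5-fold lower. Where not stated, the cause was not tested. A fit without a Dcr WT library leaves 1, which is assumed to vary like the Dcr KO lines. No paired analysis was possible because Dcr KO lines 1, 3 and 4 and Dcr WT libraries 1 and 2 share only 1 number. The ratio of Odc1 to Amd1 could not be computed, and Odc1 over Amd2 and the cMyc list counts under other scalings were added after seeing the data. With 709 reads of Tert in cMyc KO and 762 in cMyc flox, depth limits the cMyc pair more than the Dicer libraries.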

Other observations

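Impdh2 stood out between the tables. In CPM, here the reads per 1000000 coding RefSeq reads of the library, it had 23.4, 22.4 and 25.3 in Dcr KO lines 1, 3 and 4, against 16.1 and 37.8 in Dcr WT libraries 1 and 2, but 299 in cMyc KO and 321 in cMyc flox. Ppat, on the same scale, had 157, 157 and 157 in Dcr KO lines 1, 3 and 4, against 197 and 194 in Dcr WT libraries 1 and 2, and 144 in cMyc KO and 150 in cMyc flox. Tert had 25.3, 23.2 and 27.3 in Dcr KO lines 1, 3 and 4, against 49.6 and 56.8 in Dcr WT libraries 1 and 2, and 38.4 in cMyc KO and 51.8 in cMyc flox. The tables were normalised separately, with paired-end reads in the first and single-end reads in the second, so these levels were set side by side with no test.

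In CPM, Myc had 6.28, 5.47 and 2.53 in Dcr KO lines 1, 3 and 4, against 60.7 and 44.7 in Dcr WT libraries 1 and 2, and 0.650 in cMyc KO against 30.3 in cMyc flox. Odc1 had 162 to 189 in Dcr KO and 362 to 446 in Dcr WT, and 639 in cMyc KO and 652 in cMyc flox.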
